A study of Mus musculus with 10 samples.

Results

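The young non-arthritic group of this series holds 4 of the 10 spleen arrays, and its mice were not of 1 age. The 2 arrays labelled 3 months (replicates 1 and 2) were set against the arrays labelled 2 months (replicate 3) and 1 month (replicate 4). The 4 arrays were thus split by the age labels and by no array signal. The younger side is thus 1 mouse of each of 2 ages, with a mean age of 1.5 months. All 10 mice were female BALB/c siblings that had received 3 intraperitoneal injections of cartilage proteoglycan (PG, the aggrecan of joint cartilage), at 100 µg of protein with 2 mg of the adjuvant DDA, on days 0, 21 and 42. In this model, PG-induced arthritis (PGIA), immunized mice mount an autoimmune attack on their own joints, and the 4 mice described here carried the label non-arthritic. Every value thus describes a spleen after immunization. A 50 mg piece of each spleen, removed when the experiment ended, gave the RNA of 1 array. The labels do not say when the age was counted. The third injection fell on day 42, so the mouse labelled 1 month was older than its label when its spleen was removed. The paper counts age at the first injection in its table of serum antibodies, but its text does not describe the arrays. Ages given below are the labelled ages, not the ages at sacrifice. The design text describes young mice as 1 month old, which is the label of 1 of these 4 mice. The old non-arthritic mice of 5 and 7 months are given beside some results as a further reference. The arthritic mice (old, both of 9 months, and young, of 5 and 4 months) enter the estimate of the spread and the slope of the poly-A covariate described below. The comparison asks what differed between spleens within the young age range of the study.

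The spleen filters blood and houses B cells in follicles, T cells around the arterioles, natural killer (NK) cells and macrophages in the red pulp. In mice it also makes red cells, neutrophils and platelets, and it remains a blood-forming organ in young animals. NK cells and cytotoxic CD8 T cells kill target cells by releasing perforin and granzymes, and their numbers and granule content change as a mouse matures. A capsule and a network of collagen-rich trabeculae and reticular fibres, laid down by fibroblasts, hold the organ together. Because each array measures a whole piece of tissue, fewer cells of a type and less RNA per cell cannot be told apart.

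Values are log2 signals per probe set, on which a difference of 1 is 2-fold. Where 4 values stand without ages, the first pair is 3-month replicates 1 and 2 and the second pair is the 2-month and the 1-month mouse. Over the 23805 probe sets kept by a filter on dim signals, the 4 arrays correlated pairwise at 0.98 to 0.99. The root mean square difference was 0.252 between both 3-month arrays and 0.236 between the 2-month and the 1-month array. It was 0.276 to 0.326 between a 3-month array and a younger one, so the age groups stood only slightly further apart than mice within them. Of 15 genes taken as a check of spleen identity, 13 were kept, among them Tlx1 (transcription factor needed to form a spleen), Spic (red pulp macrophages) and Cxcl13 (B cell follicles). Xist, the transcript of the inactive X chromosome in females, was at 12.89 and 12.69 in the 3-month arrays, 13.11 at 2 months and 13.04 at 1 month. Old arthritic replicate 2 had Xist at 7.64 against 12.69 to 13.24 in the other 9 arrays, with Y-linked genes at or below 4.96 in all 10. That array enters through the shared estimate of the spread and through the poly-A covariate described below, and no probe set was called with it or without it.

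No probe set passed an adjusted p of 0.05 in limma, for 3 against 1 to 2 months (0 of 23805, 0%) or for the slope per month across the same 4 mice (0 of 23805, 0%). The smallest adjusted p was 0.219 for the difference and 0.214 for the slope. At an unadjusted p under 0.05, limma gave 3122 probe sets (13.1%) for the difference and 2410 for the slope. An exact permutation test of 2 arrays against 2 cannot go below p = 0.333, so the groups below are described by their values, with counts of genes whose 3-month and younger arrays did not overlap. Among the 11870 named genes, both 3-month arrays lay above both younger arrays in 3682 (31%) and below both in 1465 (12.3%). At an unadjusted p under 0.05 there were 826 genes higher (6.96%) and 257 lower (2.17%) at 3 months. Genes that did not overlap were thus higher in 71.5% of cases, a split that was 56.4% after quantile normalization of the deposited values and 87.8% with each array centred on its median. The median difference over all genes was 0.04, and 0.01 and 0.11 under these scalings, so shares near 31% and 12.3% and medians near 0.04 say nothing about a gene list. The sign of the median of each of the 8 lists described next as higher or lower (NK and cytotoxic, T cell, interferon, cholesterol, chaperone, heat shock, matrix and mast cell) was the same under both scalings.

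**Figure D1:**
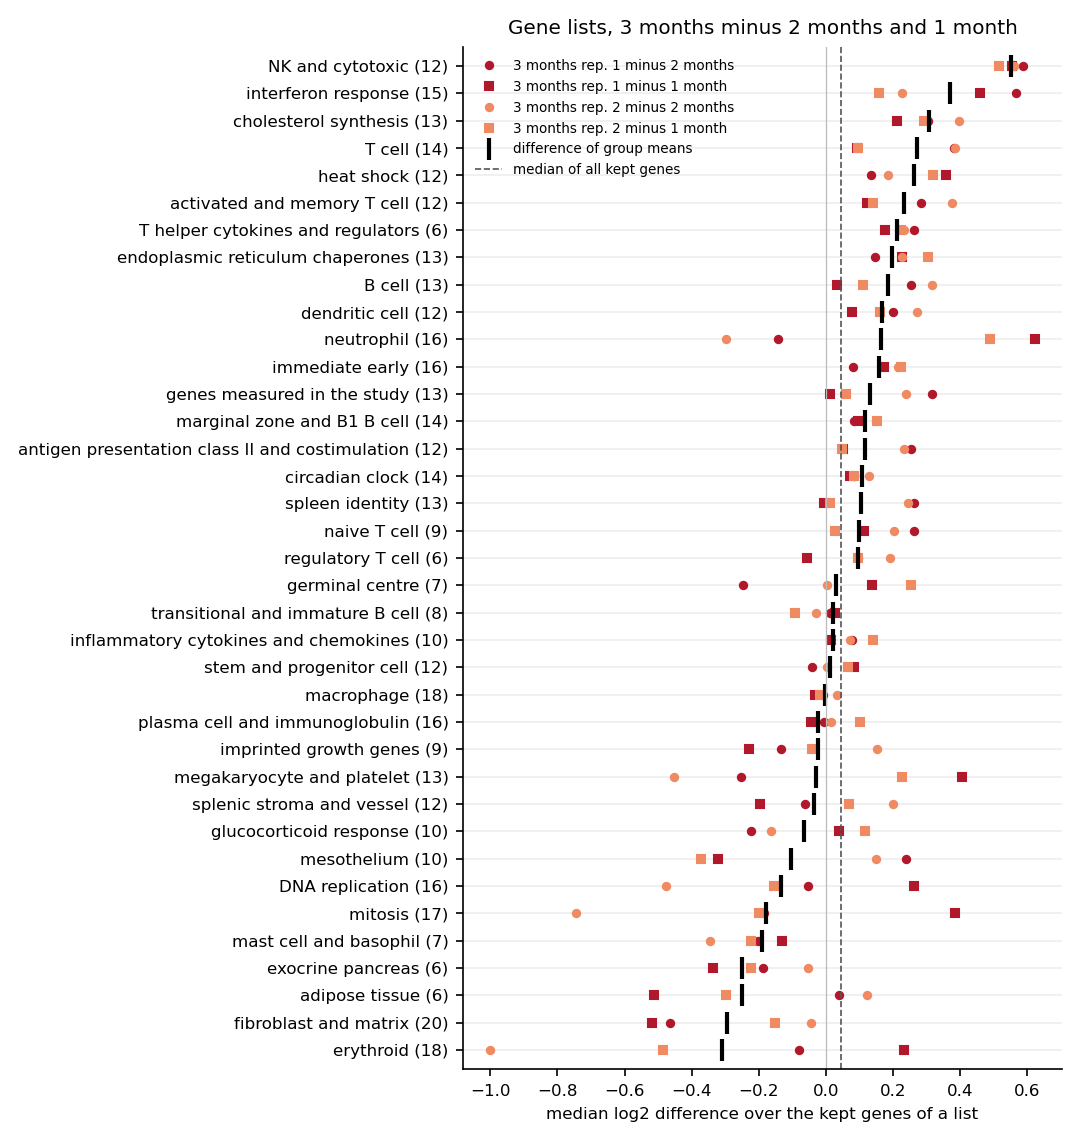
Median log2 difference (x-axis) of 37 gene lists (y-axis, kept genes in brackets) between 3-month and younger young non-arthritic spleens, where black bars are differences of group means, coloured symbols are the 4 pairs of 1 older and 1 younger array, and the dashed line is the median of all 11870 genes (0.04). The NK and cytotoxic list lies at 0.55 with its 4 pairs between 0.52 and 0.59, while the neutrophil and erythroid lists change sign between pairs.

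The plot of list medians orders the 37 lists and shows how far each depends on the pair of mice. Genes of NK and cytotoxic cells were the list with the highest median of the 37, and each of the 4 pairs gave nearly the same value. All 12 kept genes of the 14 listed were higher in both 3-month arrays than in both younger arrays, against 31% of all genes. Their median difference was 0.55, and 11 of the 12 had an unadjusted p under 0.05, against 6.96% of all genes. The mean level of the 12 genes was 9.40 and 9.43 in the 3-month spleens, 8.82 at 2 months and 8.90 at 1 month. It was 9.14 at 5 months and 9.13 at 7 months in old non-arthritic mice, between both age groups of the young mice.

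Gzma encodes granzyme A, a protease of cytotoxic granules. Its signal was 12.38 and 12.33 in the 3-month arrays, 11.37 at 2 months and 11.61 at 1 month. The difference was 0.86 (standard error 0.13, limma adjusted p = 0.219), and the old non-arthritic mice had 11.90 and 11.89. Prf1 encodes perforin, which opens the target cell membrane, and had 8.90 and 9.07 at 3 months, 8.17 at 2 months and 8.29 at 1 month. Its difference of 0.75 (standard error 0.11) had the same adjusted p as Gzma in limma. For both genes every 3-month mouse was further from each younger mouse than from the other 3-month mouse.

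The inhibitory receptor Klrg1, which marks mature NK cells and effector T cells, had 8.78 and 8.81 at 3 months, 8.21 at 2 months and 8.29 at 1 month. Fasl, the ligand that triggers death of Fas-bearing cells, had 7.52 and 7.35 at 3 months, 6.80 at 2 months and 6.81 at 1 month. Both genes showed the same order, with no overlap between ages. The younger values of Fasl were dim, below the median signals of their arrays. The following members were picked after their values were seen. Ncr1 encodes NKp46, a receptor that among spleen cells is largely restricted to NK cells, and had 10.21 and 10.18 at 3 months, 9.30 at 2 months and 9.54 at 1 month. Gzmb (granzyme B) had 8.89 and 8.82 at 3 months, 7.89 at 2 months and 8.27 at 1 month. Klrd1, which pairs with NKG2 receptors, had the smallest difference of the list at 0.18 (standard error 0.24). Eomes, Il2rb, Nkg7, Klrc1 and Klrk1 lay between, at 0.33 to 0.56.

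**Figure D2:**
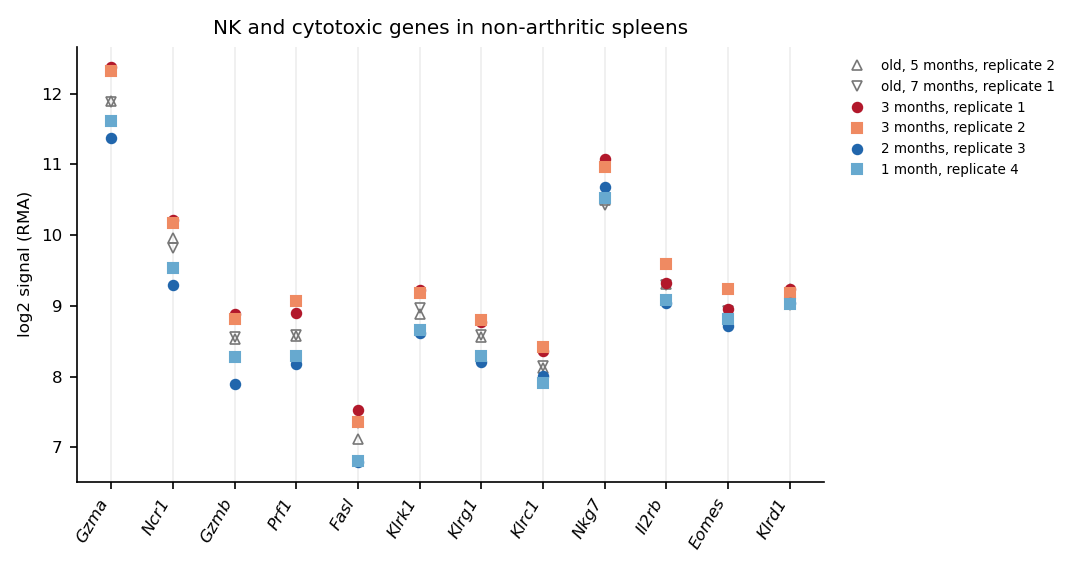
Log2 signal (y-axis) of the 12 kept NK and cytotoxic genes (x-axis, by falling difference) in 6 non-arthritic spleens, with 1 symbol per array, red shades for 3 months, blue shades for 2 months and 1 month, and open triangles for old mice of 5 and 7 months. For each gene both red symbols lie above both blue symbols, from a difference of 0.86 for Gzma to 0.18 for Klrd1.

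The plot of NK genes also shows the old mice, which lay between the 3-month and the younger arrays for every gene but Nkg7 and Klrd1. For Nkg7 the old mice (10.50 and 10.42) were below both younger arrays (10.68 and 10.53). For Klrd1 the old mice had 9.23 and 9.01, against 9.23 and 9.19 at 3 months and 9.04 and 9.02 in the younger arrays. The T cell list was less uniform. Of its 14 kept genes, 9 were higher at 3 months without overlap and 1 was lower (Zap70), against 31% and 12.3% of all genes. Zap70 had 2 other kept probe sets, of which 1 had the same sign. The median difference of the list was 0.27. The difference was larger against the 2-month mouse, where the list median was 0.38 and 0.39 for the 3-month mice, than against the 1-month mouse, where it was 0.09 for each. Cd247, the zeta chain of the T cell receptor, had 9.34 and 9.07 at 3 months, 8.51 at 2 months and 8.87 at 1 month. Cd8a, the co-receptor of cytotoxic T cells, had 9.86 and 9.74 at 3 months, 9.15 at 2 months and 9.59 at 1 month. Cd2, an adhesion receptor of T and NK cells, had 10.68 and 10.72, 10.21 and 10.49. Thy1 overlapped, since 3-month replicate 1 (10.34) and the 1-month mouse (10.34) had nearly equal signals.

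Several genes encode proteins that were also followed by other assays in these experiments, as cell surface markers or cytokines. Of 22 genes on that list, 13 were kept, with 6 higher and 1 lower without overlap, against 31% and 12.3% of all genes. Cd4, Cd8a, Cd28, Cd5, Spn and Tnf were higher in both 3-month arrays, with differences of 0.13 to 0.42, and Itgax (CD11c of dendritic cells) was lower with -0.20. Cd28, the costimulatory receptor of T cells, had 9.86 and 9.70 at 3 months, 9.24 at 2 months and 9.64 at 1 month. Cd4 had 10.58 in both 3-month arrays, 10.23 at 2 months and 10.47 at 1 month. Cd3e, Cd44, Ptprc, Fcer2a, Ighm and Adgre1 overlapped between ages, and their differences lay between -0.01 and 0.25. The smallest adjusted p among the 13 was 0.344 in limma, and the signs of Cd3e, Cd44, Ptprc, Ighm and Adgre1 depended on the scaling.

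Other leukocyte lists showed smaller medians. Without overlap, 31% of all genes were higher and 12.3% lower, so counts near these shares say nothing about a list. Activated and memory T cell genes were higher without overlap in 7 of 12 (median 0.23), B cell genes in 7 of 13 with 1 lower (median 0.19), and dendritic cell genes in 6 of 12 with 1 lower (median 0.17). Macrophage genes had 4 of 18 higher and 5 lower, and their median was 0.06 with arrays centred and -0.04 after quantile normalization. Regulatory T cell genes had 2 of 6 higher (median 0.09) and plasma cell genes 3 of 16 higher and 3 lower (median -0.02, and 0.04 with arrays centred). When the 2-month mouse was left out the median was 0.10 for T cell, 0.06 for B cell, 0.14 for activated and memory T cell and -0.0137 for regulatory T cell genes. The regulatory T cell median was also below 0 (-0.0077) without 3-month replicate 2.

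Genes of cholesterol synthesis were higher at 3 months without overlap in 12 of 13 kept genes, against 31% of all genes. The remaining gene, Insig1, overlapped. The pathway turns acetyl-CoA into sterols and is switched on as a unit by the factor SREBP2 when cell sterol runs low. The median difference was 0.31, and the 4 pairs gave 0.21 to 0.40. Hmgcs1, which makes HMG-CoA, had 10.96 and 11.04 at 3 months, 10.43 at 2 months and 10.63 at 1 month. Idi1, the isomerase of isopentenyl diphosphate, had 9.93 and 9.95, 9.33 and 9.45. Fdps, the synthase of farnesyl diphosphate, had 10.56 and 10.33, 9.97 and 10.06. Each of these enzymes was above both younger mice in both 3-month mice. Cyp51, which removes a methyl group from lanosterol, had 8.29 and 8.21, 7.57 and 7.89. Adjusted p-values of these 4 genes in limma were 0.284 to 0.353, and Hmgcs1 in old non-arthritic mice was 10.71 at 5 months and 10.37 at 7 months.

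Chaperones of the endoplasmic reticulum (ER), which fold secreted proteins and are induced when unfolded protein accumulates, were higher without overlap in 11 of 13 genes. Of all genes, 31% were higher in this way. The median of the chaperone list was 0.20, and the pairs gave 0.15 to 0.30. Manf, a secreted ER stress protein, had 12.50 and 12.49 at 3 months, 12.06 at 2 months and 12.17 at 1 month. Hspa5 (BiP), the main Hsp70 chaperone of the ER, had 13.43 and 13.48, 13.26 and 13.18. The co-chaperones Dnajb9 and Dnajb11 differed by 0.33 and 0.32. Calr, a lectin chaperone, and Ddit3 (CHOP), a transcription factor of the ER stress response, overlapped. The median of the list was 0.10 with the poly-A spike-in level, described below, as a covariate.

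Heat shock genes were higher without overlap in 8 of 12, against 31% of all genes, with a median of 0.26. Hsph1, a partner of Hsp70, had 11.33 and 11.53 at 3 months, 10.96 at 2 months, 10.51 at 1 month, and 10.40 and 10.28 in old mice of 5 and 7 months. Hspa8, the constitutive Hsp70, had 14.21 and 14.19 at 3 months and 13.92 at both younger ages. The stress-inducible Hspa1b varied more, with 9.95 and 10.34, 9.70 and 8.76. For Hsph1 and Hspa1b the order ran 3 months, 2 months, 1 month, while both old mice lay below the 2-month mouse, so the values did not follow age beyond 3 months. Chordc1, a co-chaperone of Hsp90, had 11.17 in both 3-month arrays, 10.92 at 2 months and 10.62 at 1 month.

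Interferon response genes were higher without overlap in 10 of 15, against 31% of all genes, with a median of 0.37. The pairs differed, since 3-month replicate 1 lay 0.57 and 0.46 above the younger mice and 3-month replicate 2 lay 0.23 and 0.16. Cxcl10, a chemokine that draws CXCR3-bearing T and NK cells, had 10.35 and 10.29 at 3 months, 9.37 at 2 months and 9.60 at 1 month (difference 0.83, standard error 0.15, limma adjusted p = 0.219). Ifi27l2a had 12.91 and 12.70, 12.13 and 12.45. Ifit2 had 9.28 and 9.01, 8.79 and 8.71, and Ifit3, of the same family of RNA-binding antiviral proteins, had 9.65 and 9.12, 8.48 and 9.11. The 3-month replicate 2 was close to the 1-month mouse for Ifit3. Rsad2 (viperin), picked after its values were seen, went the other way in that mouse, with 12.82 in 3-month replicate 1, 11.33 in replicate 2, 12.85 at 2 months and 12.71 at 1 month.

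Since the genes of these pathways are known to be controlled through short promoter motifs, the 250 bases before the start of each gene were searched in the RefSeq promoter table (GRCm38.p6, 27025 genes) on both strands. The ER stress element, CCAAT and CCACG spaced by 9 bases, was present in 5 of the 12 chaperone genes in the table (Hspa5, Hsp90b1, Pdia6, Calr and Creld2) and in 0.13% of all genes. A plain CCAAT, which is part of that element, was present in all 12 of them and in all 9 cholesterol genes in the table, against 37.5% of all genes. The sterol element TCACNCCAC was present in 1 of the 9 cholesterol genes (Hmgcs1) and in 1.22% of all genes. It was also present in 1 of the 12 chaperone genes (Hsp90b1), so it was not particular to the cholesterol list. The core of the interferon element, TTTC repeated after 2 bases of any kind, was present in 7 of 11 interferon genes (Ifit1, Ifit3, Oas1a, Rsad2, Cxcl10, Gbp2 and Igtp) and in 3.46% of all genes. The heat shock core, GAA, TTC and GAA with 2 bases of any kind between each, was present in 2 of 10 heat shock genes (Hspd1 and Hspe1) and in 0.514% of all genes. A match is a description of the sequence and not a measured site. Genes with an element did not all differ alike, since Calr overlapped between ages (0.02) while Creld2 differed by 0.33 and Hspa5 by 0.24.

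Promoters of members described above are printed so that the element of each pathway can be seen in place, in the direction of the gene and ending at the base before its start, with the motif in capitals and all other bases in lower case. They are Hspa5 (chr2:34771840-34772089, plus strand) and Creld2 (chr15:88819396-88819645, plus strand) with the ER stress element, Hmgcs1 (chr13:119690101-119690350, plus strand) with the sterol element, and Cxcl10 (chr5:92348890-92349139, minus strand) and Ifit3 (chr19:34583279-34583528, plus strand) with the interferon element. Creld2 and Cxcl10 hold the motif on the opposite strand, so their capitals show its reverse complement.
Hspa5: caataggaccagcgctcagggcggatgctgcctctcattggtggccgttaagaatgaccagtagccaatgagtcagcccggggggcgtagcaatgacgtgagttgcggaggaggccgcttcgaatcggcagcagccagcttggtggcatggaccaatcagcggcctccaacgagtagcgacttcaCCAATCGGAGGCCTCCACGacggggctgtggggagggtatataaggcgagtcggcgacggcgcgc
Creld2: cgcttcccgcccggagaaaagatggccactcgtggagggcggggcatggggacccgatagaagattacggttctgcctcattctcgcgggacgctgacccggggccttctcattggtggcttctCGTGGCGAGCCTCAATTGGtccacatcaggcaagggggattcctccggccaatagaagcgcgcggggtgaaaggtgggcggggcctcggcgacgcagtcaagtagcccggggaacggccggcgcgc
Hmgcs1: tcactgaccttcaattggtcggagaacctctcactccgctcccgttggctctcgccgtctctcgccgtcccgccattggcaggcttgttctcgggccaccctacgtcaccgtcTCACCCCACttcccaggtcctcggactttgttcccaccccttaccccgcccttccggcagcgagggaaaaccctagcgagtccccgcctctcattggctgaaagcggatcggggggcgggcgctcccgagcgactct
Cxcl10: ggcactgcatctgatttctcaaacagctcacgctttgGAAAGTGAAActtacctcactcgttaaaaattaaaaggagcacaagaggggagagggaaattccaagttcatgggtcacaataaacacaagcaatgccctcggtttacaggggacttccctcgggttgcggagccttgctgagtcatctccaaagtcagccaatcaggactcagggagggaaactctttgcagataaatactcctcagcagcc
Ifit3: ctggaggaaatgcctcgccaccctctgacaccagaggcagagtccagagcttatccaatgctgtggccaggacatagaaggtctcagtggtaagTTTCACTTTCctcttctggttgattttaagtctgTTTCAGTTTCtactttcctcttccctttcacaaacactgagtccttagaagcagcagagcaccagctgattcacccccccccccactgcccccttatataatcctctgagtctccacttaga

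Among the genes that were lower at 3 months, those of fibroblasts and extracellular matrix stood together. All 20 kept genes of this list had a difference below 0. In 11 of them both 3-month arrays lay below both younger arrays, against 12.3% of all genes, and in none above. The median difference was -0.30, and 6 genes had an unadjusted p under 0.05, against 2.17% of all genes. The median was -0.09 without 3-month replicate 1 and -0.52 without replicate 2, so its size rested on 1 mouse although its sign did not.

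Lum encodes lumican, a small proteoglycan that binds collagen fibrils, and had the largest difference of all genes without overlap. Its signal was 7.24 and 7.18 at 3 months, 10.58 at 2 months and 9.42 at 1 month, with 7.76 at 5 months and 8.24 at 7 months in old mice. The difference was -2.79 (standard error 0.41, limma adjusted p = 0.219). Both younger mice were thus above all 4 older non-arthritic mice. Dcn encodes decorin, a related proteoglycan, and had 11.18 and 10.96 at 3 months, 11.74 at 2 months and 12.08 at 1 month. Col6a1 had 8.89 and 9.21, 9.83 and 9.62, and Col6a2, its partner chain in collagen VI, had 9.21 and 9.50, 10.08 and 9.86. Fn1 (fibronectin), picked after its values were seen, had 10.38 and 10.57, 11.56 and 11.07. The fibrillar collagen genes Col1a1 and Col3a1, also picked after their values were seen, overlapped with differences of -0.29 and -0.33, so the difference was not shared evenly by the matrix genes.

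Mast cell proteases were lower in both 3-month spleens than in both younger ones. In 4 of the 7 kept genes of the list both 3-month arrays lay below both younger arrays, against 12.3% of all genes. The 4 genes were Tpsb2, Mcpt4, Cpa3 and Fcer1a, a chain of the IgE receptor. The median of the list was -0.19, and it was -0.43 with the poly-A covariate. With the stricter filter, which left fewer genes in the list, it was -0.71, the unchanged difference of Cpa3. Tpsb2 (tryptase) had 8.33 and 8.38 at 3 months, 9.18 at 2 months and 9.88 at 1 month. Mcpt4 (a chymase of connective tissue mast cells) had 8.48 and 8.39, 9.01 and 10.10, and Cpa3 (carboxypeptidase of mast cells) had 8.55 and 8.70, 9.05 and 9.62. For these 3 genes the 1-month mouse was the highest and the 2-month mouse came next. The other 3 genes of the list overlapped and had differences above 0. They were Ms4a2, another chain of the IgE receptor (0.15), Hdc, which makes histamine (0.10), and the basophil protease Mcpt8 (0.41). Mcpt8 had 9.13 and 8.98, 9.33 and 7.96. Limma adjusted p-values of Tpsb2, Mcpt4, Cpa3 and Mcpt8 were 0.313 to 0.656.

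**Figure D3:**
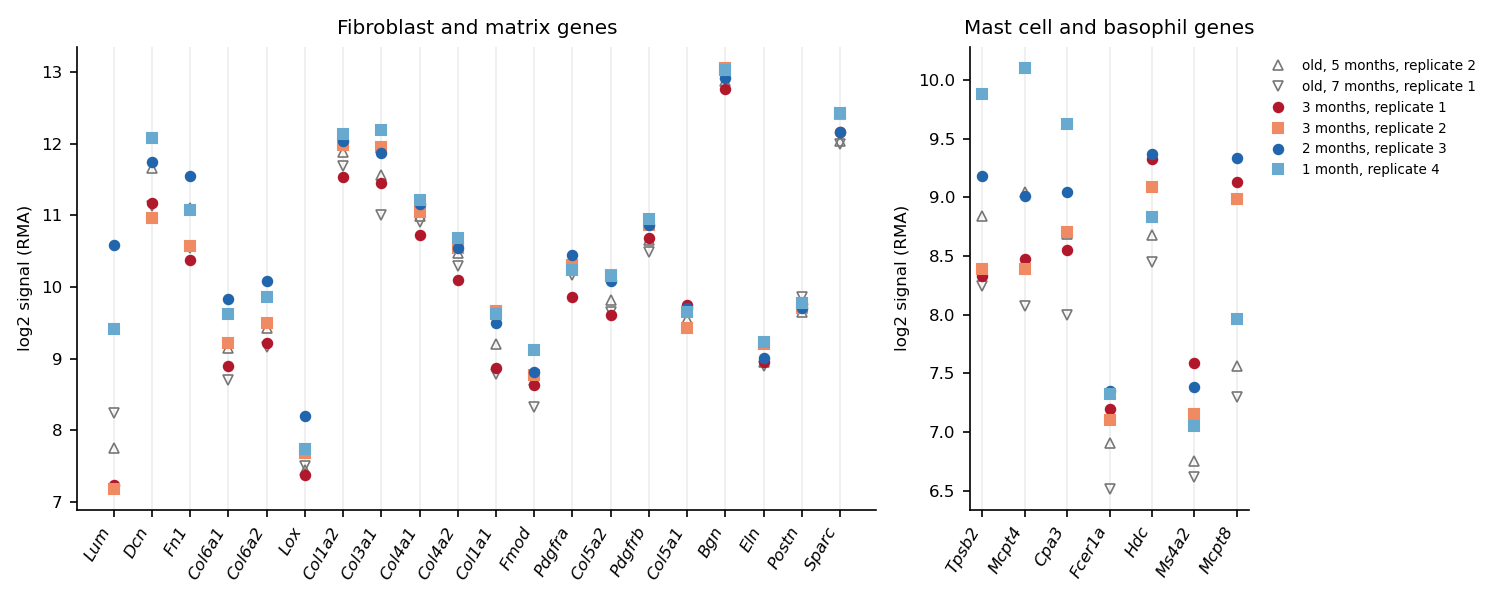
Log2 signal (y-axis) of 20 fibroblast and matrix genes (left) and 7 mast cell and basophil genes (right), ordered on the x-axis by difference, with 1 symbol per array, red shades for 3 months, blue shades for 2 months and 1 month, and open triangles for old mice. Lum lies at 7.24 and 7.18 in the 3-month arrays against 10.58 and 9.42 in the younger ones, while genes towards the right of each panel overlap.

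Because a piece of spleen can carry capsule, fat or pancreas, lists for these tissues were read beside the matrix and mast cell genes of the plot. Mesothelium, the cell layer of the capsule, had 10 kept genes, of which 1 was higher, 2 were lower and 7 overlapped, and its mean level was 7.87 and 7.86 at 3 months, 7.69 at 2 months and 8.17 at 1 month. Adipose genes had 2 of 6 higher and 1 lower, with mean levels of 9.21 and 9.52, 9.26 and 9.84. Exocrine pancreas genes had 1 of 6 higher and 4 lower, with mean levels of 7.96 and 8.12, 8.13 and 8.23. Over all genes 31% were higher and 12.3% lower without overlap. List medians were -0.11 for mesothelium, -0.25 for adipose and -0.25 for exocrine pancreas genes. The mean levels of the mesothelium, adipose and exocrine pancreas lists were highest in the 1-month mouse of these 4, as were Dcn, Tpsb2, Mcpt4 and Cpa3. Single members of the 3 lists varied. Krt8, Fabp4, Scd1 and Gp2 were highest in a 3-month array, Wt1 and Ctrb1 in the 2-month mouse, and the other kept members in the 1-month mouse. Lum, Col6a1, Col6a2 and Fn1 were highest in the 2-month mouse. The part of attached tissue in the matrix and mast cell differences was not tested.

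Further genes with large negative differences were picked after their values were seen, and several are known from macrophages in inflamed or healing tissue. Ccl8, a monocyte chemokine, had 7.99 and 8.38 at 3 months, 10.86 at 2 months and 9.02 at 1 month. Arg1 (arginase 1) had 6.81 and 6.45, 9.15 and 7.19. Both were highest in the 2-month mouse, which differed from the 1-month mouse by more than the 1-month mouse differed from the 3-month mice. The 3-month values of Arg1 were dim, below the median signals of their arrays. Gpnmb, a glycoprotein of phagocytes, had 10.26 and 10.35, 11.82 and 11.33. Trem2, a lipid receptor of macrophages, had 7.87 and 7.71, 8.82 and 8.38. C1qa, a complement gene of resident macrophages picked in the same way, had 13.06 in both 3-month arrays, 13.03 and 13.10.

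By the smallest p in each direction, the leading genes beside those described were of mixed function. Higher at 3 months were Ms4a4d (membrane protein, difference 0.95), Slamf8 (receptor of myeloid cells, 0.59), Nsg2 (0.98), Chst10 (sulfotransferase, 0.60), Gimap7 (GTPase of lymphocytes, 0.49) and Crisp3 (secreted protein, 0.77). Ms4a4d had 9.67 and 9.48 at 3 months, 8.73 at 2 months and 8.52 at 1 month. Lower were Rtn4 (shapes the ER, -0.74), Erdr1 (-1.63), Fads3 (fatty acid desaturase family, -0.49), Gas1 (membrane protein, -0.53), Hnrnpdl (RNA-binding protein, -0.46), Mfap5 (microfibril protein, -0.66), Carns1 (carnosine synthase, -0.68), Pyroxd2 (-0.43) and Firre (nuclear long non-coding RNA, -0.46). Erdr1 had 11.83 and 11.66 at 3 months, 13.10 at 2 months and 13.66 at 1 month, while the old mice had 13.39 and 13.06. For Erdr1 and Rtn4 (11.61 and 11.74, 12.48 and 12.35, 12.40 and 12.44 in old mice) the old mice were thus level with the younger ones. Limma adjusted p-values of these genes were 0.219 to 0.222. Crisp3 in both younger mice and Mfap5 in both 3-month mice were dim, below the median signals of their arrays.

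Blood-forming genes overlapped between the age groups in nearly every case, with 2 of 16 neutrophil, 1 of 18 erythroid and 0 of 17 mitosis genes without overlap. Of all genes, 31% were higher and 12.3% lower without overlap. Neutrophil genes were high at 3 and 2 months and lower at 1 month. Their mean level over 16 genes was 11.92 and 11.84 at 3 months, 12.10 at 2 months and 11.29 at 1 month, with 11.07 and 10.94 at 5 and 7 months. Of the 16, 2 did not overlap, the chemokine receptor Cxcr2 and the protease inhibitor Stfa3, whose signs turned with the poly-A covariate described below. Stfa3 was dim, with 6.06 and 5.76, 5.59 and 5.53, below the median signal of every young non-arthritic array. The median difference of the neutrophil list was 0.16 but was 0.59 against the 1-month mouse alone and -0.24 against the 2-month mouse alone. Ctsg (cathepsin G of primary granules) had 11.45 and 11.55, 11.51 and 10.41. S100a8, a subunit of calprotectin, had 14.57 and 14.60, 14.59 and 14.28. Camp, the cathelicidin of secondary granules and picked after its values were seen, had 14.01 in both 3-month arrays, 14.31 and 13.29. For all 3 genes it was the 1-month mouse that lay apart.

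Erythroid genes were lowest in 3-month replicate 2. Over 18 genes the mean level was 11.74 in 3-month replicate 1, 10.91 in replicate 2, 11.84 at 2 months and 11.48 at 1 month. Slc4a1 (band 3 of the red cell membrane) had 13.37 and 12.58, 13.67 and 13.29, and Alas2 (the erythroid enzyme that starts heme synthesis) had 13.05 and 11.92, 13.05 and 13.11. Fech, the last enzyme of heme synthesis, had 13.04 and 12.09, 13.11 and 13.03, and Ank1 (ankyrin) had 10.56 and 9.83, 10.96 and 10.31. All 4 set replicate 2 apart from the other mice. Mitosis genes were low in 2 mice of different age groups, with a mean level over 17 genes of 10.64 and 10.10 at 3 months, 10.83 at 2 months and 10.29 at 1 month. The median of the erythroid list was -0.31, and it was 0.05 without 3-month replicate 2. The NK and cytotoxic median was 0.55 without 3-month replicate 2 and 0.54 without replicate 1, so it did not rest on that mouse.

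**Figure D4:**
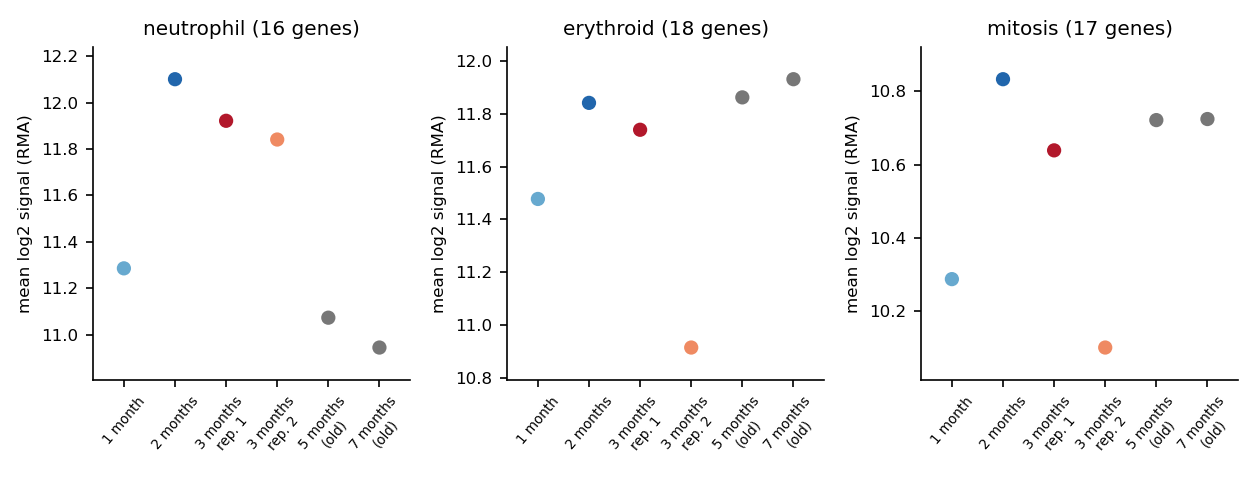
Mean log2 signal (y-axis) of the neutrophil (16 genes), erythroid (18 genes) and mitosis (17 genes) lists in 6 non-arthritic spleens ordered by labelled age (x-axis), with 1 point per array, blue shades for 1 and 2 months, red shades for 3 months and grey for old mice. The 1-month mouse is low in neutrophil genes (11.29 against 11.84 to 12.10 in the other young mice), and 3-month replicate 2 is lowest in erythroid genes (10.91) and mitosis genes (10.10).

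The plot of levels by age shows no steady course for these 3 lists. Some technical values moved with the age groups as well. Poly-A spike-in transcripts, which are added to the total RNA before labelling, had mean signals of 10.27 and 10.21 in the 3-month arrays, 9.89 at 2 months and 9.88 at 1 month. They rest on control names that were put back in order by an inference described with the processing. Hybridization spike-ins, added after labelling, overlapped with 10.51 and 10.79, 10.48 and 10.81. Array medians were 6.88 and 6.89 at 3 months and 6.94 and 6.95 in the younger arrays. The slope of limma on this level as a covariate rests mostly on the old arthritic pair (9.52 and 10.52), which holds the array with low Xist. With the covariate limma again called 0 probe sets (2938 at an unadjusted p under 0.05). The list medians were then 0.57 for NK and cytotoxic, 0.36 for cholesterol, 0.27 for heat shock, 0.24 for interferon and -0.27 for matrix genes, against 0.02 for all genes.

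The direction also depended on how probe sets are annotated. Among 20752 probe sets with 1 gene symbol, 33.9% were higher without overlap and 13.8% lower. Among 3053 with several symbols or none, 17.5% were higher and 42.6% lower, with a median of -0.12 against 0.06. Firre, named above, had 7.27 and 7.33, 7.77 and 7.75. The part of RNA preparation in these differences was not tested.

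**Figure D5:**
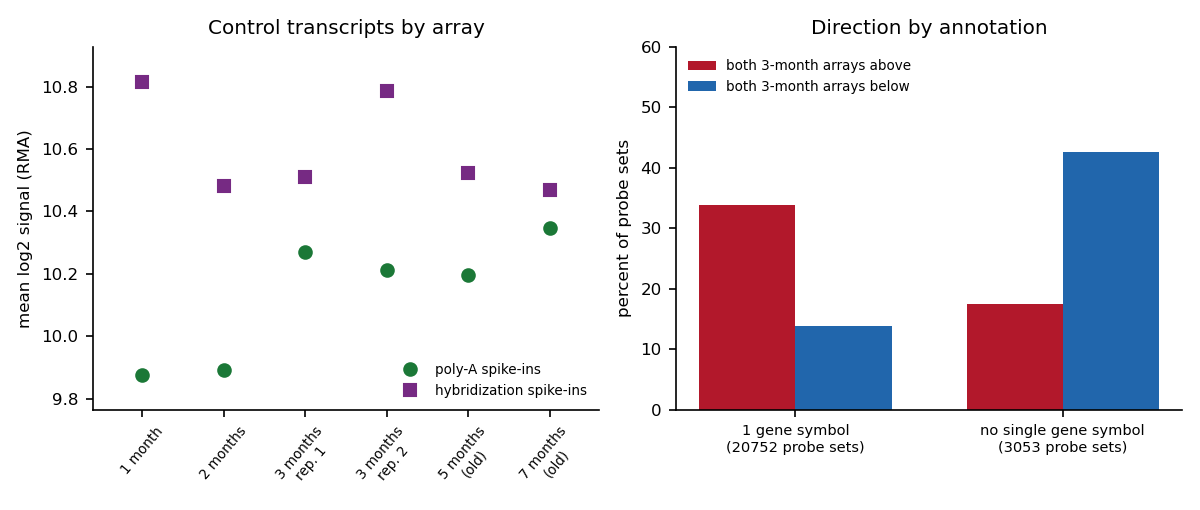
Left, mean log2 signal (y-axis) of poly-A spike-ins (circles) and hybridization spike-ins (squares) in 6 non-arthritic arrays by labelled age (x-axis), and right, percent of probe sets (y-axis, from 0) in which both 3-month arrays lay above (red) or below (blue) both younger arrays, for probe sets with 1 gene symbol and without. Poly-A spike-ins were at 10.27 and 10.21 at 3 months against 9.89 and 9.88, and 42.6% of probe sets without a single symbol were lower against 13.8% with one.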

How the data were processed

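Spleen RNA of 10 immunized mice was measured on Affymetrix arrays, 1 per mouse. The deposited values are log2 signals that the authors obtained with RMA per the submitters' processing notes, where no version was found. The text of the paper does not describe the arrays. Of 45101 rows, 64 controls were left out, and 34945 of the others carry 1 gene symbol, 932 several and 9160 none. Control rows appear to carry each other's names, so spike-ins were read after the names were re-sorted by character code, an inference from their values.

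A probe set was kept if 2 or more arrays had it above their own median (23805). Each of 11870 genes was represented by the brightest kept probe set that names it alone. limma 3.58.1 (R 4.3.3) fitted a mean for each of 5 groups over all 10 arrays, with 5 residual degrees of freedom. P-values were adjusted by Benjamini-Hochberg, with 0.05 as the threshold. They rest on how far the mice within a group differ. In the 1-to-2-month, old non-arthritic and young arthritic groups these mice also differed in labelled age. A second model took the slope on labelled age within the 4 mice. The models were tested on simulated data. Named genes are the 10 with the smallest p in each direction without overlap, up to 4 genes of each of 10 described lists by p, and genes of proteins the study assayed. Of 525 genes in 38 lists, 424 were kept. The comparison, lists and rule were chosen with earlier results of these data known. Alternatives changed the filter, the scaling, the spread estimate and the arrays or probe sets used. The poly-A covariate and the restriction to probe sets with 1 symbol were chosen after seeing the data. Figures were drawn with matplotlib 3.10.9.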

Additional observations from a re-analysis of the deposited data

How the results depend on the processing

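No probe set was called in limma under any alternative run, for the difference (1415 to 4650 at an unadjusted p under 0.05) or the slope (1177 to 3943). Smallest adjusted p-values ran from 0.128 to 0.549 for the difference and 0.115 to 0.833 for the slope. No paired analysis was possible because the labels do not pair single mice, and replicate numbers only count the mice of a group. Counts of genes without overlap were 4325 higher and 3014 lower of 18193 with no filter, 2649 and 2045 after quantile normalization, 5460 and 760 with arrays centred, and 5126 to 5829 and 2751 to 3431 with 1 array left out, where 1 array stands alone. List medians moved beyond the spread between arrays as follows. Centring gave 0.61 for NK and cytotoxic, 0.26 for ER chaperone, 0.37 for cholesterol and -0.13 for mast cell genes. Quantile normalization gave 0.14 for ER chaperone genes, and gene means gave 0.24 for cholesterol genes. The stricter filter gave -0.71 for the fewer mast cell genes that it kept. The poly-A covariate gave 0.10 for ER chaperone and -0.43 for mast cell genes. With 1 array left out medians ran from 0.10 to 0.42 for T cell, -0.24 to 0.59 for neutrophil, -0.76 to 0.0543 for erythroid, -0.28 to -0.14 for mast cell, -0.52 to -0.0917 for matrix, 0.19 to 0.28 for ER chaperone and 0.26 to 0.40 for cholesterol genes. The named genes that changed sign were Cd3e, Cd44, Ptprc and Ighm after quantile normalization (-0.0008, -0.0237, -0.0203 and 0), Ighm and Adgre1 with centring (0.0564 and 0.0596), Ptprc with gene means (-0.41), and Stfa3, Cxcr2 and Cd44 with the covariate (-0.0221, -0.0081 and -0.091). With 1 array left out ranges were -0.0047 to 0.0669 (Cd44), -0.073 to 0.0639 (Adgre1), -0.0468 to 0.11 (Ptprc), -0.0187 to 0.0032 (Ighm), -0.15 to 0.28 (Cd3e), -0.28 to 1.10 (Mcpt8), -0.0039 to 1.10 (Ctsg) and -0.0075 to 0.31 (S100a8). The cause of these changes was not tested. The number of arrays, 2 against 2 with 2 ages in 1 group, limits every comparison here.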
